A study of Homo sapiens with 15 samples.

Results

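Culture experiment 2 comprised 3 of the 15 small RNA libraries of a study of human cells, 1 library from each of 3 treatments. The other 12 libraries came from experiments 3 to 6, which repeated the same 3 treatments. The study title names macrophages, whereas the labels give wild-type HEK-293 cells, an embryonic kidney line, for every library. Cells were grown in DMEM with fetal bovine serum and given 1 of 3 treatments over 18 h. These were VLDL, a triglyceride-rich lipoprotein (titled pcDNA:VLDL), the lipids that lipoprotein lipase releases from it (LPL:VLDL), and the same lipids together with GKT136901 at 20 µM, which blocks NOX1 and NOX4, enzymes that produce reactive oxygen. The labels give the experiment number as a batch and name no other difference between experiments, so passage, culture, RNA extraction and library preparation cannot be told apart within it. Experiment 2 was chosen from these data, because its Y RNA share and its sum of myeloid mRNA fragments stood apart from the other libraries. Its differences from experiments 3 to 6 are therefore given as a description of these 15 libraries, in which an adjusted p serves as a cutoff to list genes and not as a test. Adjusted p values are printed for 2 measures that the choice did not use, the treatment responses and the differences among experiments 3 to 6.

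Total counts ran from 5076917 to 9757123 per library, and the lowest belonged to the GKT136901 library of experiment 3. The label was checked against marker genes. Of 13 genes known from HEK-293 cells, 5 had no count (LIN28B, NEFM, KRT8, KRT18 and TUBB2B), and the 13 together reached at most 1.66 CPM (counts scaled to a common library total) in a library. The 24 genes of a myeloid list, known from macrophages and related cells, summed to between 40.1 and 164 CPM in the 15 libraries, with AIF1 and C1QA at 0. The marker levels thus go against the HEK-293 label in experiment 2 and in experiments 3 to 6 alike. Genes of red blood cells had no count, and those of lymphoid cells and fibroblasts summed to at most 0.23 and 0.918 CPM. Reads that map to several places or overlap several genes were not counted. The zeros in these lists, those of HEK-293 genes included, therefore do not by themselves show absence.

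Y RNAs are short noncoding RNAs made by RNA polymerase III from a gene cluster on chromosome 7. They fold into a stem and loop, bind the Ro60 protein through the stem formed by their ends, and are cut into fragments in stressed and dying cells. MicroRNAs are cut from hairpin precursors and pair with mRNAs through their seed, bases 2 to 8. C/D box snoRNAs guide methylation of ribosomal RNA. Transfer RNAs are seen in such libraries mainly as fragments, and so are mRNAs, whose full length is not captured.

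The sequences below belong to RNAs described in the results. RNY1 differed most between experiment 2 and the others among the Y RNAs. RNY4 is shown for contrast, since its groups overlapped on the scale used for single genes below. Y RNA sequences are from GENCODE v29, with capitals for the 11 bases that open both, the strand of the stem at the 5′ end. RNY5 (7, positions 148941488 to 148941571) is named without its sequence. In GRCh38, RNY1 lies at chr7:148987136-148987248 on the minus strand and RNY4 at chr7:148963315-148963410 on the plus strand.
RNY1: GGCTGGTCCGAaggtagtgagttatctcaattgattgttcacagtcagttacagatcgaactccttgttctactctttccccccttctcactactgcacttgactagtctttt
RNY4: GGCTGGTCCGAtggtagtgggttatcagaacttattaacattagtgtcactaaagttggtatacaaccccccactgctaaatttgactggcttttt

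Mature miRNAs are from RefSeq (GRCh38.p14), with the seed in capitals. The set shows miRNAs described in detail below, among them cluster partners, relatives by seed and miR-378a, which was named at the outset. MiR-132 overlapped between the groups, and for miR-125b the counted reads exclude those shared by its loci.
hsa-miR-100-5p: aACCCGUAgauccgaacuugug
hsa-miR-99a-5p: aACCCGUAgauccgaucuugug
hsa-miR-125b-5p: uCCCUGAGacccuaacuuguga
hsa-let-7c-5p: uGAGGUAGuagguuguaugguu
hsa-let-7i-5p: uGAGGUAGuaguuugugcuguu
hsa-miR-98-5p: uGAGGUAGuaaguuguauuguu
hsa-miR-10a-5p: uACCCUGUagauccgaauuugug
hsa-miR-184: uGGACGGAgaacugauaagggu
hsa-miR-132-3p: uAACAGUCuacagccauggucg
hsa-miR-212-3p: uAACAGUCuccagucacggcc
hsa-miR-148a-3p: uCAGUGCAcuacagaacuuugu
hsa-miR-152-3p: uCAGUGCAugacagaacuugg
hsa-miR-378a-3p: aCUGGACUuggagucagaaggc
hsa-miR-584-5p: uUAUGGUUugccugggacugag
The miR-100 and miR-99a arms share their seed and differ by the single substitution A16U, counted from the 5′ end of miR-100.

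The make-up of the libraries differed between experiment 2 and the others in every treatment for Y RNA, nuclear tRNA, mRNA and mitochondrial RNA. Y RNA held 3.12% (pcDNA:VLDL), 3.25% (LPL:VLDL) and 3.24% (GKT136901) of the counts in experiment 2, and between 0.546% and 1.05% in the other 12 libraries (median 0.765%). Nuclear tRNA held 0.47% to 0.519% in experiment 2 and 0.658% to 1.12% in the others, so the groups did not overlap. Fragments of mRNA held 1.29% to 1.54% in experiment 2 and 0.738% to 1.04% elsewhere. These are bulk libraries, so fewer cells of a type and less RNA per cell cannot be told apart.

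MicroRNA held 30.2%, 32.7% and 30.4% in the same order, and the other libraries ranged from 30.8% to 48.7%, with the lowest in LPL:VLDL of experiment 3. C/D box snoRNA held 60.3% to 63.2% in experiment 2 and 47.5% to 65.9% elsewhere. These ranges overlapped. Mitochondrial tRNA was at 0.228% to 0.237% in experiment 2 and at 0.0774% to 0.221% in the others, with no overlap.

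**Figure D1:**
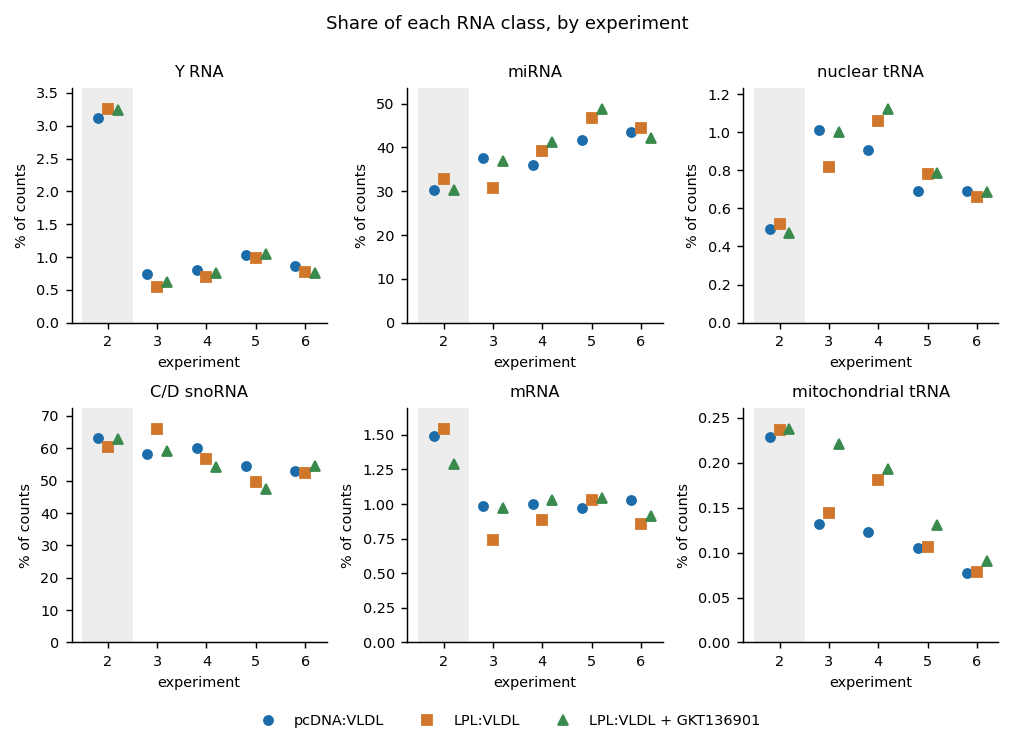
Share of all counts (%) held by 6 RNA classes, with 1 point per library, experiments 2 to 6 on the x axis and symbols for the 3 treatments; experiment 2 is shaded. Y RNA stands at 3.12% to 3.25% in experiment 2 against at most 1.05% in the other libraries, and nuclear tRNA at most at 0.519% against at least 0.658%.

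Single genes were compared on TMM-scaled CPM, that is CPM of a library total multiplied by a composition factor. The factors were 1.32, 1.34 and 1.16 in experiment 2 and 0.766 to 1.03 in the other libraries, so this scaling lowers the levels of experiment 2 relative to plain CPM. Of 4099 genes fitted with edgeR, 304 (7.42%) met a cutoff of 0.05 in adjusted p for experiment 2 against experiments 3 to 6 and are termed called, 98 higher (2.39%) and 206 lower (5.03%). In 279 of them (6.81%) the experiment 2 library also lay outside the range of the other 4 libraries in each of the 3 treatments, on the same side. Of these, 94 were higher (2.29%) and 185 lower (4.51%). They are called below "higher" or "lower in all 3 treatments". The fitted median over all genes was a log2 difference of 0.03.

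The count and its direction depended on units, scaling and model. The 3 libraries of an experiment share a batch label, and with counts summed per experiment, 1 experiment against 4, 44 genes were called (12 higher and 32 lower). RNY1, SPP1, MIR10A and MIR99A were among these, and RNY5, RNY3, CSF1R, MIR378A and MIR100 were not. With library totals in place of TMM factors 435 were called, 344 higher and 91 lower, and the median over all genes moved from 0.03 to 0.46. With limma voom on TMM scaling 289 were higher and 199 lower. Without 1 of the experiment 2 libraries the count was 180 (pcDNA:VLDL), 161 (LPL:VLDL) or 188 (GKT136901).

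By class, the lower RNAs were mostly miRNAs and nuclear tRNAs. Lower in all 3 treatments were 58 of 164 nuclear tRNAs (median log2 difference -1.08) and 74 of 291 miRNAs (median -0.57). Higher were 3 of 4 Y RNAs (median 1.11) and 74 of 3201 mRNAs (median 0.18), a share of 2.31% beside 2.29% over all genes. C/D box snoRNAs were close to the median of all genes, with 6 of 166 lower, 3 higher and a median of -0.15. Of 16 snRNAs, 4 were lower and none higher.

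**Figure D2:**
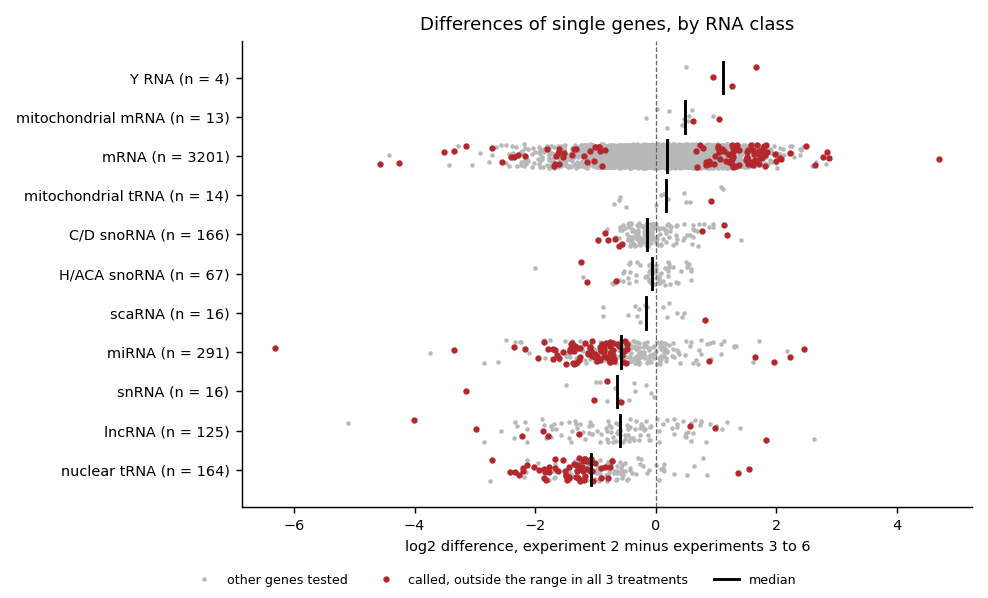
Fitted log2 difference of experiment 2 minus experiments 3 to 6 (x axis) for each gene tested, by RNA class (rows); red points are called and lie outside the range of the other libraries in all 3 treatments, and black bars are class medians. The medians run from 1.11 for Y RNAs to -1.08 for nuclear tRNAs.

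RNY1 was the most abundant Y RNA gene in counts. It stood at 21700 CPM (pcDNA:VLDL), 22200 CPM (LPL:VLDL) and 25300 CPM (GKT136901) in experiment 2 and at 5400 to 9440 CPM in the other 12 libraries (median 7030), a log2 difference of 1.66 ± 0.14 (SE). The lowest library of experiment 2 was above the highest of the others. RNY5, which lies in the same cluster, stood at 1920, 2070 and 2570 CPM against 863 to 1370 CPM (median 1160), a log2 difference of 0.95 ± 0.15.

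RNY3 stood at 38.2, 40.2 and 42.1 CPM in experiment 2 and at 13 to 24 CPM elsewhere (log2 difference 1.27 ± 0.19). RNY4 was the exception among the 4 genes on TMM-scaled CPM. Its level was 26.5 to 27.8 CPM in experiment 2 and 11.8 to 30.9 CPM elsewhere, where the LPL:VLDL library of experiment 3 was the highest of all 15, and its log2 difference of 0.50 ± 0.23 was not called. With library totals in place of TMM factors RNY4 was called at 0.94, and every library of experiment 2 lay above all others. The overlap thus rests on the scaling. The Ro60 gene (RO60) and SSB, whose products bind Y RNAs, did not reach the filter on low counts.

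Among experiments 3 to 6, which were not used to choose experiment 2, RNY1 also differed (edgeR's quasi-likelihood test, adjusted p = 0.00366). It was lowest in experiment 3 (5400 to 6420 CPM), followed by experiments 4 (6430 to 6980 CPM) and 6 (7080 to 8130 CPM), and highest in experiment 5 (8960 to 9440 CPM). RNY5 did not pass that test (adjusted p = 0.0909), nor did RNY3 (0.961) or RNY4 (0.331). VTRNA1-2, a vault RNA and another product of RNA polymerase III, was at 13 to 15.1 CPM in experiment 2 and 1.24 to 15.2 CPM elsewhere. It was called (log2 difference 1.26 ± 0.37) but overlapped the LPL:VLDL library of experiment 3, and its call was lost in 11 other settings.

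**Figure D3:**
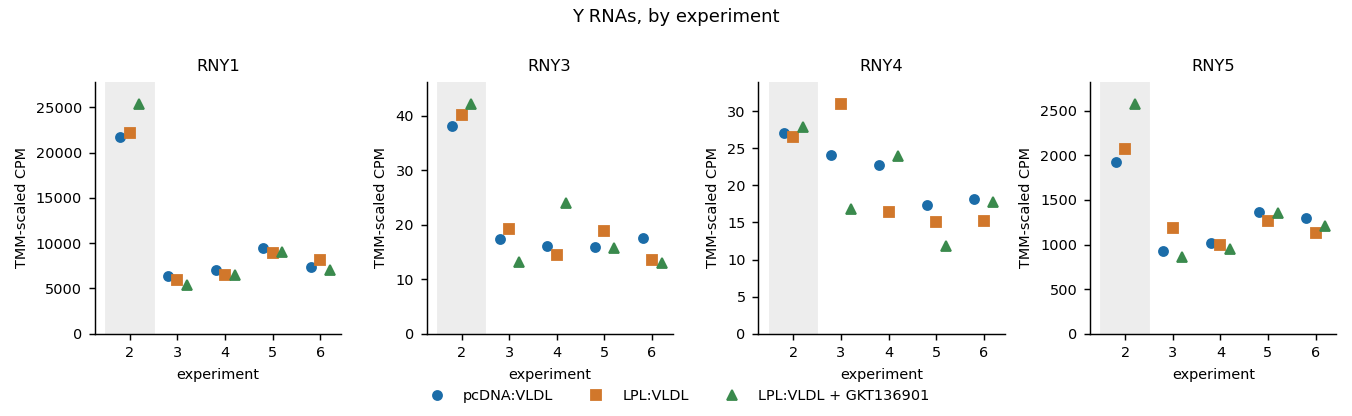
TMM-scaled CPM of the 4 Y RNA genes (y axes from 0), with 1 point per library, experiments 2 to 6 on the x axis and symbols for the 3 treatments; experiment 2 is shaded. RNY1, RNY3 and RNY5 of experiment 2 lie above all other libraries, whereas RNY4 overlaps them.

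The genes most like RNY5 over the 12 libraries of experiments 3 to 6 were found by Pearson correlation of log2 CPM. They were MBP (r = 0.94), BAIAP2 (0.872), the mitochondrial alanine tRNA TRNA (0.855), MIR1301 (0.836) and MIR1180 (0.836), over points that share a batch label in groups of 3. None of the 5 was called higher in experiment 2. MIR1301 was at 138 to 157 CPM in experiment 2 and at 286 to 591 CPM in the others, the opposite side from RNY5.

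Of 291 miRNA genes tested, 5 were called higher in experiment 2, and all 5 were higher in all 3 treatments (1.72%, beside 2.29% over all genes). MIR100, whose product belongs to the miR-99 seed family, stood at 3020, 3330 and 3660 CPM in experiment 2 (log2 difference 2.47 ± 0.66). The other libraries formed separate levels, 1030 to 1160 CPM in experiment 3, 1030 to 1220 CPM in experiment 4, 64.1 to 92.8 CPM in experiment 5 and 75.8 to 86.2 CPM in experiment 6. Treatments of an experiment lay close together and experiments lay far apart. The difference among experiments 3 to 6 passed (edgeR, adjusted p = 6.38e-17), so MIR100 did not separate experiment 2 alone, and its call was lost in 6 other settings.

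MIR99A shares the seed of MIR100 and is encoded on chromosome 21. It stood at 76.5, 79.9 and 83 CPM in experiment 2 and at 8.43 to 25 CPM elsewhere (median 17.4), a log2 difference of 2.23 ± 0.19. Unlike MIR100, it showed no difference past the threshold among experiments 3 to 6 (edgeR, adjusted p = 0.992), with 15.7 to 20 CPM in experiment 3 and 15.7 to 18.7 CPM in experiment 5.

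The cluster partners of both genes were examined after their values had been seen. On chromosome 11 the precursors MIR100 (122152229 to 122152308), MIRLET7A2 (122146522 to 122146593) and MIR125B1 (122099757 to 122099844) lie on the minus strand. MIR125B1 stood at 29.3, 34.6 and 43.6 CPM in experiment 2, at 9.62 to 18.8 CPM in experiments 3 and 4 and at 0.24 to 1.31 CPM in experiments 5 and 6 (adjusted p among experiments 3 to 6 = 1.05e-09, edgeR). It followed the order of MIR100, but its log2 difference of 2.18 ± 0.71 was not called in the main model. It was called in 13 other settings, among them the experiment as a block (3.515) and library totals (2.587). With counts summed per experiment (2.049) it was not called.

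MIRLET7A2 went the other way, with 38.4, 30.6 and 35.2 CPM in experiment 2 against 78.8 to 119 CPM, a log2 difference of -1.42 ± 0.19. It showed no difference past the threshold among experiments 3 to 6 (adjusted p = 0.992, edgeR). The let-7a 5p arm is identical in 3 loci and the miR-125b 5p arm in 2, and reads that map to several loci were not counted, so the levels of both genes come from other reads. The pair on chromosome 21 was split in the same way. MIR99A (16539089 to 16539169, plus strand) was higher, whereas MIRLET7C (16539828 to 16539911) stood at 140, 136 and 155 CPM against 205 to 286 CPM, lower in all 3 treatments (log2 difference -0.69 ± 0.15).

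The other 3 miRNA genes called higher were MIR184, MIR212 and the scarce MIR3662, which is only named here. MIR184, a miRNA known from epithelia, stood at 32.5, 37.7 and 47.6 CPM in experiment 2 and at 1.47 to 21.9 CPM elsewhere, with experiments 5 and 6 at most at 6.85 CPM (adjusted p among experiments 3 to 6 = 4.97e-07, edgeR). MIR212 and MIR132 are made from a common transcript that rises with CREB activity, and they share their seed. MIR212 stood at 293, 279 and 304 CPM against 76.1 to 268 CPM (log2 difference 0.88 ± 0.23). It also differed among experiments 3 to 6 (adjusted p = 0.00143, edgeR), with 156 to 268 CPM in experiment 3 and 82.4 to 141 CPM in experiment 5. MIR132 stood at 302, 332 and 284 CPM against 98.8 to 364 CPM, so the groups overlapped, and its 0.58 ± 0.21 was not called. It was called with the experiment as a block (0.62) and in 4 other settings, and not with counts summed per experiment (0.46).

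Among the miRNAs lower in experiment 2, MIR10A, encoded within the HOXB cluster, had the clearest separation. It stood at 166, 155 and 177 CPM in experiment 2 and at 520 to 759 CPM in the other 12 libraries (median 656), a log2 difference of -1.96 ± 0.16. Experiments 3 to 6 did not differ past the threshold for it (adjusted p = 0.79, edgeR). MIR340 stood at 719 to 810 CPM against 1770 to 2380 CPM and MIR30E at 20200 to 22500 CPM against 35500 to 42800 CPM, again with no overlap.

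MIR584 and MIR148A had a gradient over experiments in the opposite direction to MIR100. MIR584 stood at 7.79, 6.67 and 10.7 CPM in experiment 2, 14.7 to 20.5 CPM in experiments 3 and 4 and 50 to 66.7 CPM in experiments 5 and 6 (adjusted p among experiments 3 to 6 = 2.33e-08, edgeR). MIR148A, the most abundant miRNA gene, stood at 46900, 50400 and 57400 CPM in experiment 2, 86800 to 98500 CPM in experiments 3 and 4 and 146000 to 190000 CPM in experiments 5 and 6 (adjusted p = 1.66e-05, edgeR). MIR126, a miRNA known from endothelial and blood cells, stood at 361 to 429 CPM, 796 to 914 CPM and 1170 to 1560 CPM in the same order (adjusted p = 7.3e-05, edgeR). All 3 were lowest in experiment 2 and lower in experiments 3 and 4 than in experiments 5 and 6.

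**Figure D4:**
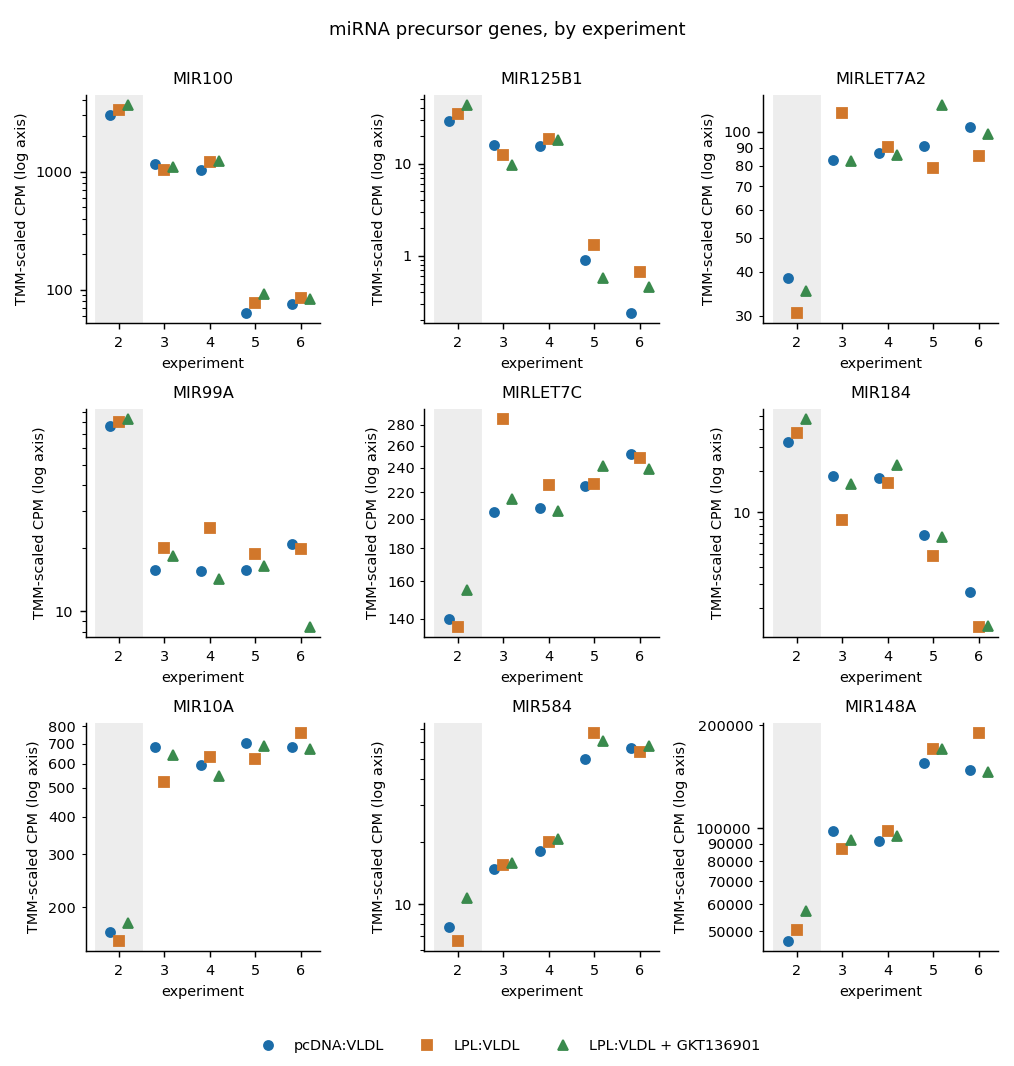
TMM-scaled CPM (log axes) of 9 miRNA precursor genes, with 1 point per library, experiments 2 to 6 on the x axis and symbols for the 3 treatments; experiment 2 is shaded. MIR100, MIR125B1 and MIR184 are highest in experiment 2 and lowest in experiments 5 and 6, MIR584 and MIR148A have the reverse order, and MIR99A and MIR10A set experiment 2 apart from experiments 3 to 6 at similar levels.

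Relatives by seed were examined where several were tested, beside 230 of all 291 miRNAs with a difference below 0. Of the 8 tested genes with the let-7 seed GAGGUAG, 7 were lower in all 3 treatments, with log2 differences of -1.42 to -0.18 over the 8. MIRLET7I, the most abundant of them, stood at 68000 to 70100 CPM against 92900 to 156000 CPM. The 5p arm with the seed is identical in 3 loci for let-7a and in 2 for let-7f. Counts of MIRLET7A2, MIRLET7F1 and MIRLET7F2 therefore come from other reads. The 3 genes with the seed CAGUGCA (MIR148A, MIR148B and MIR152) were all lower, by -1.32, -0.69 and -0.83. Both genes with the seed ACCCGUA, MIR100 and MIR99A, were higher. Of the miR-26 and miR-30 families, 2 of 2 and 2 of 4 tested genes were lower in all 3 treatments. The miR-15/16 family had 2 of 6, and the miR-17, miR-27 and miR-25/32 families had 1 of 2 each. For miR-29 it was 0 of 2 and for miR-181 0 of 3, with a highest log2 difference of 1.61. Over all miRNAs tested the share was 74 of 291 (25.4%). The miR-16 5p arm is likewise identical in 2 loci. In every family, reads that map to several loci were not counted, so these shares need not describe the mature miRNAs with the seed. With each class normalized to its own total, MIRLET7I, MIRLET7C, MIRLET7D, MIRLET7G and MIR148B were no longer called.

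MIR378A, encoded within an intron of PPARGC1B and known from mitochondrial metabolism, stood at 12.5 (pcDNA:VLDL), 21.7 (LPL:VLDL) and 27.7 CPM (GKT136901) in experiment 2 and at 28.5 to 46.1 CPM elsewhere. Its log2 difference was -0.86 ± 0.20, and experiments 3 to 6 did not differ past the threshold (adjusted p = 0.991, edgeR). The gap between the highest library of experiment 2 and the lowest of the others was small, and with library totals in place of TMM factors its -0.44 was not called. Of 21 miRNA genes listed for macrophages, 11 had no count, 8 were tested, and MIR212 was called higher and MIR378A lower. Over all miRNAs tested, 1.72% were higher and 25.4% lower in all 3 treatments. Those without a count included MIR21, MIR142, MIR223 and MIR155. Reads that overlap several genes or map to several places were not counted, so a 0 does not show that a miRNA was absent.

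The base composition of the miRNAs moved with their difference at one end. Of 291 miRNAs tested, 273 had a mature sequence. The 28 with a mean GC content of up to 35% had a median log2 difference of -1.14 and 14 lower in all 3 treatments, whereas the medians of the other 3 GC classes lay between -0.56 and -0.48. The part of base composition in the result was not tested.

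Nuclear tRNA genes were lower in experiment 2 over most amino acids. TRR-ACG2-1, an arginine tRNA gene, stood at 281, 333 and 322 CPM in experiment 2 and at 1030 to 1910 CPM elsewhere (median 1400), a log2 difference of -2.20 ± 0.19. TRV-CAC1-4, a valine tRNA gene and the most abundant of the class, stood at 1100, 1110 and 1060 CPM against 1530 to 3260 CPM (-1.10 ± 0.21). TRQ-CTG1-4, a glutamine tRNA gene, stood at 314 to 344 CPM against 564 to 1130 CPM. All 3 also differed among experiments 3 to 6 (adjusted p = 0.00434, 0.000435 and 0.00137, edgeR), each with higher levels in experiments 3 and 4 than in 5 and 6. Copies of a tRNA gene are near identical, and reads that map to several places were not counted. Levels of single tRNA genes, and counts of them by amino acid, therefore leave out reads shared between copies. How large that part was is not known.

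By amino acid, 6 of 10 arginine, 5 of 10 threonine, 7 of 13 proline and 4 of 7 glutamine tRNA genes were lower in all 3 treatments, with medians of -1.58, -1.24, -1.18 and -1.30. Shares were smaller for serine (3 of 10), tyrosine (2 of 7) and phenylalanine (1 of 4), beside 58 of 164 (35.4%) over the class. Of 8 cysteine, 5 alanine, 4 aspartate, 3 tryptophan and 2 methionine tRNA genes, 0 were lower in all 3 treatments. Aspartate differed from these in its median of 0.05, against -0.38 for cysteine and -0.58 for alanine. TRD-GTC1-1 stood at 67.1, 56.5 and 67 CPM against 15.4 to 31.7 CPM (log2 difference 1.54 ± 0.21). TRC-GCA6-1, a cysteine tRNA gene, stood at 22.8, 30.9 and 32.2 CPM against 2.64 to 20.2 CPM (1.37 ± 0.37). It also differed among experiments 3 to 6 (adjusted p = 0.000491, edgeR), whereas TRD-GTC1-1 did not pass there (0.214). TRD-GTC1-1 and TRC-GCA6-1 were the 2 nuclear tRNA genes called higher, both in all 3 treatments (1.22% of 164, beside 2.29% over all genes).

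The counts of both classes rest on the scaling between classes. With each RNA class normalized to its own total, 6 nuclear tRNA genes were called lower in place of 64, and 28 miRNA genes in place of 79. TRR-ACG2-1, MIR10A and MIR99A kept their calls under that setting.

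Among C/D box snoRNAs, SNORD7 and SNORD88B had the largest positive differences of those with a mean of at least 10 CPM. SNORD7 stood at 54.9, 59.1 and 79.2 CPM against 20.2 to 38.1 CPM (log2 difference 1.19 ± 0.19), SNORD88B at 21.8 to 31.1 CPM against 6.4 to 16 CPM, and SNORD15A at 771 to 949 CPM against 418 to 566 CPM. SNORD101 was the most abundant of those lower, at 14600 to 18900 CPM against 22800 to 42500 CPM (-0.80 ± 0.15), beside SNORD104, SNORD63B and SNORD143. The 3 most abundant, SNORD49A, SNORD50A and SNORD44, were not called, with log2 differences of -0.31, -0.20 and -0.26. With the experiment as a block, 38 of 166 C/D box snoRNAs were called in place of 10. With library totals 23 were called, 22 of them higher, and the class median turned from -0.15 to 0.28.

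Among experiments 3 to 6 none of SNORD7, SNORD88B, SNORD15A and SNORD101 passed (adjusted p = 0.515, 0.444, 0.983 and 0.508, edgeR). The H/ACA box snoRNAs SNORA53 and SNORA74A, guides of pseudouridylation, were lower at 5.08 to 9.9 CPM against 13.9 to 26.4 CPM and 22 to 30.3 CPM against 32.8 to 52.2 CPM. Of the 67 tested in that class, 3 were lower in all 3 treatments (4.48%, beside 4.51% over all genes) and 0 higher. The class median was -0.07. SCARNA28, an RNA of Cajal bodies, was higher at 46.6 to 52.2 CPM against 18.4 to 36.7 CPM. RNU5E-1, a spliceosomal U5 gene, stood at 48.8 to 69.2 CPM against 72.3 to 174 CPM. RN7SK, the RNA that holds the elongation factor P-TEFb inactive, stood at 126 to 144 CPM against 152 to 235 CPM. RN7SL1, the signal recognition particle RNA, stood at 6.5 to 8.05 CPM against 10.6 to 21.8 CPM. With library totals SNORA53 (-0.71), SNORA74A (-0.24), RNU5E-1 (-0.57), RN7SK (-0.14) and RN7SL1 (-0.67) were no longer called.

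Of mitochondrial RNAs, COX2 fragments were higher, at 198, 244 and 190 CPM against 62.9 to 141 CPM (log2 difference 1.06 ± 0.19), and so were ND1 (0.61 ± 0.19) and the tyrosine tRNA TRNY (0.91 ± 0.27). ND1 lost its call in 19 other settings and TRNY in 14, counts summed per experiment among them. TRNY also differed among experiments 3 to 6 (adjusted p = 0.0316, edgeR), whereas COX2 (0.113) and ND1 (0.189) did not pass there. The phenylalanine tRNA TRNF, the most abundant, stood at 1420 to 1600 CPM against 514 to 1720 CPM and was not called. It was called with the experiment as a block (0.63) and in 3 other settings, and not with counts summed per experiment (0.49).

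Fragments of myeloid mRNAs were higher in experiment 2 as a sum and, in all 3 treatments, for 5 of the 14 genes tested (beside 2.29% over all genes). The 24 genes of the list summed to 143 (pcDNA:VLDL), 164 (LPL:VLDL) and 109 CPM of total counts (GKT136901) in experiment 2 and to 40.1 to 79.1 CPM in the other 12 libraries (median 51.8). The median log2 difference of the 14 genes was 0.97, against 0.03 over all genes tested. Experiment 2 was chosen on a sum of such genes, so this list is no independent evidence.

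CSF1R, the growth factor receptor on which macrophages depend, stood at 18.4, 32.4 and 13.8 CPM in experiment 2 and at 5.61 to 15.5 CPM elsewhere (median 10.4), a log2 difference of 1.03 ± 0.25. The LPL:VLDL library was the highest of experiment 2, and the GKT136901 library lay below the highest of the 12 others while above those of its own treatment. SPP1, which encodes osteopontin, stood at 18.4, 21.9 and 22.5 CPM against 3.31 to 10.4 CPM (1.80 ± 0.26) with no overlap.

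ITGB2, the integrin chain of leukocytes, stood at 14.7 to 18.2 CPM against 5.24 to 11.4 CPM (0.99 ± 0.22). LAPTM5, a lysosomal protein of blood cells, stood at 7.94 to 13.6 CPM against 3 to 7.41 CPM (1.05 ± 0.26), and LCP1, which bundles actin in leukocytes, at 15.2 to 19.4 CPM against 5.93 to 14 CPM (0.96 ± 0.25). Log2 differences that were not called were 0.07 for ITGAX, -0.07 for TLR2, 1.23 for SPI1, 1.22 for CTSS, 0.99 for ITGAM, 0.66 for TYROBP, 0.47 for FCER1G, -1.40 for MSR1 and -1.78 for FCGR2A. None of the 14 passed among experiments 3 to 6. With mRNAs normalized to their own total, CSF1R and SPP1 kept their calls and ITGB2, LAPTM5 and LCP1 did not.

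**Figure D5:**
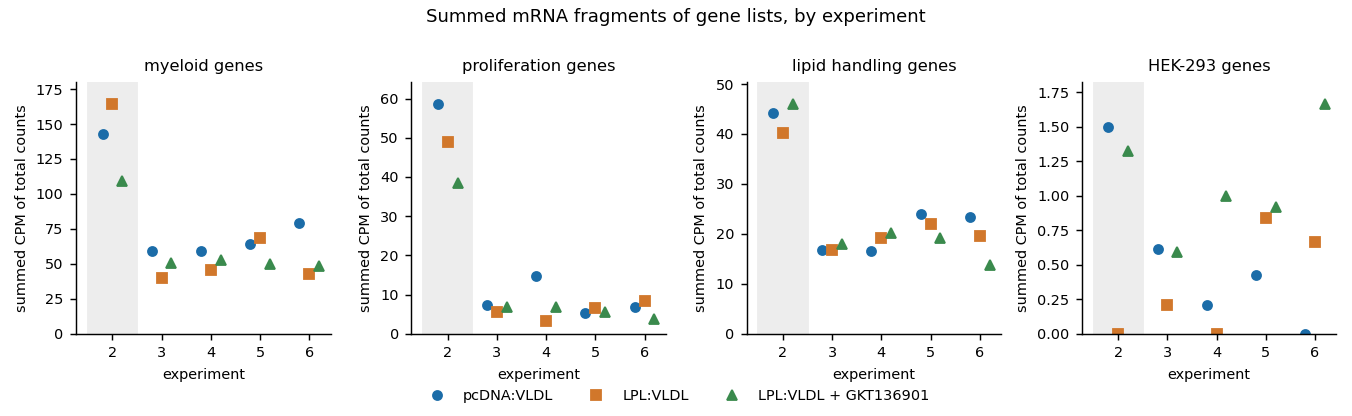
Summed CPM of total counts (y axes from 0) of 4 gene lists, with 1 point per library, experiments 2 to 6 on the x axis and symbols for the 3 treatments; experiment 2 is shaded. Myeloid, proliferation and lipid handling genes lie above all other libraries in experiment 2, whereas the HEK-293 genes stay at or below 1.66 CPM in all 15.

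Other mRNA fragments differed by more than the myeloid ones. The 15 proliferation genes summed to 58.5, 48.9 and 38.4 CPM in experiment 2 and to 3.31 to 14.8 CPM elsewhere (median 6.67). Only 5 of the 15 reached the filter on low counts (median log2 difference 2.64). Of these 5, MKI67, MCM3 and MCM7 were higher in all 3 treatments, beside 2.29% over all genes. MKI67, the gene of the Ki-67 antigen of cycling cells, stood at 9.63, 7.88 and 8.15 CPM against 0 to 3.44 CPM (2.83 ± 0.46). MCM3 and MCM7 encode subunits of the replicative helicase and had log2 differences of 2.64 ± 0.67 and 2.08 ± 0.42. RRM2, a subunit of ribonucleotide reductase, was at 2.06 to 4.03 CPM against 0 to 1.4 CPM and was not called. It was called in 11 other settings (3.31 with the experiment as a block), and not with counts summed per experiment (2.87).

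Of 11 lipid handling genes, 8 were tested and SCD and FASN were higher in all 3 treatments, beside 2.29% over all genes. SCD, which desaturates fatty acids, stood at 7.36, 7.44 and 8.97 CPM against 1.2 to 4.21 CPM (1.51 ± 0.34), and FASN, the fatty acid synthase, at 4.29 to 9.38 CPM against 0.436 to 3.59 CPM (1.57 ± 0.40). PLIN2, which coats lipid droplets, had a log2 difference of -0.50 ± 0.39 that was not called. HMGCS1, a sterol synthesis enzyme outside the list and named after its value was seen, stood at 7.18 to 10.5 CPM against 0.668 to 4.44 CPM (2.002 ± 0.386). No gene of the interferon (2 tested) or stress response list (5 tested) was called, beside 7.42% over all genes. So few genes cannot show that either response was unchanged. The 11 interferon genes summed to 6.91 (pcDNA:VLDL), 6.6 (LPL:VLDL) and 11.7 CPM (GKT136901) in experiment 2 and to 0.994 to 7.29 CPM elsewhere. In each treatment the experiment 2 library had the highest interferon sum, though the groups overlapped. Stress response genes summed to 8.13 to 11.9 CPM against 4.97 to 17.4 CPM.

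By size, MKI67, MMP9, ANPEP and IGFBP3 led the more abundant mRNAs that were higher. MMP9, a gelatinase secreted by macrophages, stood at 11.2, 10.7 and 8.66 CPM against 0 to 4.68 CPM (2.87 ± 0.55), and it also differed among experiments 3 to 6 (adjusted p = 0.0091, edgeR). ANPEP, the aminopeptidase CD13, stood at 6.6 to 7.88 CPM against 0.225 to 3.12 CPM (2.49 ± 0.44). FN1, fibronectin, was chosen after its value was seen and stood at 10.4, 6.84 and 6.19 CPM against 0 to 1.3 CPM (4.70 ± 0.69). SH2D6, the most abundant mRNA in counts that was higher, stood at 87.3 to 119 CPM against 26.7 to 37.7 CPM (1.65 ± 0.16). The cytoskeletal genes ACTB (1.03 ± 0.21), MYH9 (1.28 ± 0.23) and VIM (1.64 ± 0.34), also chosen later, were higher in all 3 treatments as well.

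Lower mRNAs included TPRG1, KLF4, PIM1 and IRS2. KLF4, a transcription factor of monocyte differentiation, stood at 1.05, 1.73 and 0.309 CPM in experiment 2 against 3.49 to 9.75 CPM (-2.55 ± 0.44). PIM1, a kinase induced by cytokines, stood at 0.692 to 2.63 CPM against 4.55 to 11 CPM, and IRS2, an adaptor of the insulin receptor, at 0.519 to 2.1 CPM against 3.67 to 9.06 CPM. TOR3A and ZNF860, the most abundant of those lower, stood at 275 to 337 CPM against 465 to 837 CPM and 112 to 135 CPM against 195 to 279 CPM. For mRNAs in total, 77 were called higher, against 125 with the experiment as a block, 37 with mRNAs normalized to their own total, and 31, 20 or 28 without the pcDNA:VLDL, LPL:VLDL or GKT136901 library of experiment 2.

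Of 125 lncRNA genes, 6 were lower (4.8%) and 3 higher (2.4%) in all 3 treatments, close to the shares over all genes. LOC105374724 had the largest positive difference (1.84 ± 0.33) and MIR548A1HG stood at 1.93 to 2.51 CPM against 3.59 to 11.3 CPM (-1.79 ± 0.37). NR2F2-AS1, one of the most abundant, stood at 1980 to 3640 CPM in experiment 2, within the range of the others (1650 to 7090 CPM), which differed among themselves (adjusted p = 7.12e-08, edgeR).

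Whether the treatments differed from each other in another way in experiment 2 was tested by the interaction of treatment and experiment 2. No gene passed (0 of 4099, 0%) by edgeR's quasi-likelihood test, DESeq2 or limma voom, and 156 genes had an unadjusted p under 0.05 by edgeR, 233 by DESeq2 and 112 by limma voom. MIR549A, MIR1913 and MALAT1 came first, with adjusted p of 0.259, 0.259 and 1 by edgeR. MIR549A was listed at 0, 0 and 2.06 CPM in experiment 2 and at 2.74 to 9.33 CPM elsewhere. Experiment 2 has 1 library per treatment, so the spread in this test comes from experiments 3 to 6.

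Among the 12 libraries of experiments 3 to 6, 146 of 4099 genes (3.56%) differed between experiments (edgeR), and 516 had an unadjusted p under 0.05. They included 35 of 291 miRNAs, 29 of 166 C/D box snoRNAs, 25 of 164 nuclear tRNAs, 5 of 14 mitochondrial tRNAs and 33 of 3201 mRNAs. Without experiment 5 the count was 78. Differences between experiments were thus measured also where experiment 2 took no part, with MIR100 (adjusted p = 6.38e-17) and MIR125B1 (1.05e-09) among them, whereas MIR99A, MIR10A, SPP1 and CSF1R did not pass there (0.992, 0.79, 0.96 and 0.978).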

How the data were processed

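Small RNA was sequenced from 15 libraries (NEBNext small RNA kit, TRIzol RNA treated with DNase, per the labels' protocols). The authors deposited 1 table of unnormalized counts by gene. Per the file headers the authors counted reads with featureCounts 2.0.6 over exons by gene, without settings for strandedness, overlaps or reads with several map positions. Reads shared by identical copies or overlapping exons of several genes were thus not counted, so a count of 0 does not show that an RNA was absent. Strands are not told apart, and a count belongs to a precursor and not to an arm. The submitters' processing notes name fastp 0.24.0, STAR 2.7.11b, hg38, R 4.4.2, edgeR 4.4.2 and DESeq2 1.46.

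Groups and experiment numbers came from the labels. Genes were kept by filterByExpr with treatment as the group (minimum count 10, minimum total 15), which left 4099 of 21453 genes with a count and 99.664% of the counts. Counts were scaled by TMM and fitted in edgeR 4.0.16 (R 4.3.3) by quasi-likelihood, with treatment and experiment 2 as terms (11 residual degrees of freedom), Benjamini-Hochberg adjustment over all genes tested and a threshold of 0.05. The interaction and the experiment factor within experiments 3 to 6 were tested in the same way. Errors of log2 differences are standard errors of the fit. List sums and class shares use plain counts. The steps were tested on simulated data. Libraries of an experiment share a batch label, and no label says whether treatments had separate wells, so p-values reflect spread that is possibly technical.

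Replicate numbers 1 to 5 are experiments 2 to 6 in the labels, so they pair the libraries. Deviations from treatment means correlated at r = 0.38 to 0.42 in the 3 pairs of experiment 2, 0.085 to 0.19 in the 12 same-experiment pairs of experiments 3 to 6, and at a median of -0.081 between others. Alternatives were other scalings, filters and tools (DESeq2 1.42.0, limma 3.58.1), the experiment as a block, sums per experiment, and leaving out libraries or experiments.

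Named genes were the Y RNAs, vault RNAs and tested myeloid genes, RNY5, CSF1R and MIR378A, up to 4 genes per class and direction with the largest difference among those called in all 3 treatments (mean of at least 10 CPM, or 2 CPM for mRNA and lncRNA), the 3 most abundant of each class, the 3 lowest interaction p values and the 5 genes most correlated with RNY5. Others, such as MIR125B1, MIRLET7A2, MIRLET7C, MIR126, MIR340, MIR132 and the named proliferation, lipid and cytoskeletal mRNAs, were chosen after their values were seen. Experiment 2, its members and the gene lists were chosen with earlier results of these data known.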

Additional observations from a re-analysis of the deposited data

Results flagged for a closer look

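In 72 groups of 4 libraries of experiments 3 to 6 (class shares, 3 list sums and 7 genes, in each treatment) the lowest and highest libraries were compared with their neighbours, and 2 groups had a library far from the others, where chance gives about 1 in 20. RNY4 was at 30.9 CPM in the LPL:VLDL library of experiment 3 and at 15.1 to 16.4 CPM in the other 3. The share of vault RNA was 0.000942% in the GKT136901 library of experiment 4 and 0.000516% to 0.000552% in the other 3.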

How the results depend on the processing

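Counts of genes called for experiment 2 against experiments 3 to 6 (304 in the main model) were 202 with a stricter filter of a mean of 10 CPM, 488 with limma voom (289 higher and 199 lower, and 206 and 180 with a random block), 44 with counts summed per experiment and 179 with each class normalized to its own total; those outside the range in all 3 treatments (279) were 185 without a filter and 165, 43 and 162 with the stricter filter, summed counts and class totals. MiRNAs lower (79) were 33 with library totals, 49 with the stricter filter, 14 with summed counts and 28 with class totals. MiRNAs higher (5) were 15, 10, 1 and 16 in the same order, 12 with limma voom and 11 with a random block. Nuclear tRNAs lower (64) were 34, 40, 10 and 6 in that order. For mRNAs higher (77) the counts were 274, 25, 9 and 37, with 49 without a filter, 254 with limma voom and 178 with a random block. C/D box snoRNAs called (10, 3 higher and 7 lower) were 23 (22 and 1), 34 (30 and 4), 0 and 18 (12 and 6), with 23 by DESeq2 and 19 by limma voom; the 0 of summed counts is from edgeR, where 648 of all genes had an unadjusted p under 0.05. Y RNAs higher (3) were 1 with summed counts. With the experiment as a replicate block, 442 genes were called, and miRNAs higher, mRNAs higher and C/D box snoRNAs called were 13, 125 and 38; of the genes named, the block ended no call.

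Leaving out each library or experiment gave 161 to 357 genes, 160 to 334 in all 3 treatments, 53 to 90 miRNAs lower, 1 to 7 miRNAs higher, 39 to 73 nuclear tRNAs lower, 20 to 105 mRNAs higher, 4 to 19 C/D box snoRNAs and 78 to 182 genes among experiments 3 to 6; Y RNAs stayed at 3 and the interaction at 0. With TMM scaling of class shares, the log2 ratio of experiment 2 to the others turned from 0.16 to -0.27 for C/D box snoRNA. For the macrophage miRNA list it turned from 0.27 to -0.16. This scaling divides each share by the factor of its library, 1.16 to 1.34 in experiment 2 and 0.766 to 1.03 elsewhere. It therefore lowers every such ratio. No gene named turned its direction among those called. Of the 92 named genes that were called, 26 kept their call with summed counts, which have 3 residual degrees of freedom, among them RNY1, SPP1, MIR10A, MIR99A, TRR-ACG2-1, KLF4, MKI67 and FN1. Low counts limit the precision of the mRNA fragments.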
